A study of Mus musculus with 10 samples.

Results

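Transcripts of macrophages, monocytes and neutrophils were measured in RNA of sorted colon regulatory T cells (Tregs). The 34 genes were chosen by name, each had exactly 1 row among the 54532 genes of the deposited count table, and no cut on measured values entered the choice. Earlier results of these data were known when they were chosen. The label of the group describes where the genes are best known, since several (Cd63, Ctss, Itgax, Fcer1g) are also used by other cells. Tumor libraries came from colon tumours of male C57BL/6 mice aged 16 weeks that carry Apc Min/+, a truncating allele of the Wnt pathway inhibitor Apc, on the Foxp3 DTR background. WT libraries came from the colon of Foxp3 DTR mice of the same strain, sex and age without the Apc allele. Foxp3 DTR, which both groups carry, puts a diphtheria toxin receptor under the Foxp3 gene, and no label mentions toxin treatment. Both groups have 5 Smart-seq2 libraries (a full-length cDNA method for low input) of cells sorted on CD45, CD3, CD4, CD25 and GFP. The labels do not say whether the samples of a group come from separate mice, and every p-value here is against the scatter among the deposited samples, which may be technical.

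Macrophages and monocytes depend on the transcription factor PU.1 (Spi1) and on the receptor for colony stimulating factor 1 (Csf1r). They take up antibody-coated or microbial material through Fc and C-type lectin receptors, which signal through adaptors with tyrosine activation motifs (ITAMs, in Tyrobp and Fcer1g), and digest it in lysosomes. Neutrophils are short-lived granulocytes rich in the calcium-binding proteins S100a8 and S100a9. In the colon, macrophages are the most abundant resident phagocytes, and neutrophils enter in inflammation and in tumours.

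The sorted cells carried less T cell RNA in WT than in Tumor libraries. The geometric mean of 14 pan-T genes was 255 to 429 CPM (counts scaled to the library total) in Tumor and 10.4 to 96.3 CPM in WT. Foxp3 itself stood at 36.9 to 148 CPM in Tumor and 3.87 to 39.7 CPM in WT (log2 fold change 2.48 ± 0.64 SE, edgeR adjusted p = 0.0560). Library totals were 3054435 to 7747699 counts (Tumor) and 1676229 to 8412887 counts (WT), so a single read is worth more CPM in the shallow WT libraries 3 and 5. The 16 listed epithelial genes summed to 45.5 to 5678 CPM in Tumor, to 28564 and 37519 CPM in WT replicates 1 and 2 and to 173 to 286 CPM in the other WT libraries. The repeat-derived gene model Gm10800 took 0.844% to 5.77% of counts in Tumor and 3.19%, 0.931%, 9.92%, 22.3% and 26.5% in WT replicates 1 to 5. Because the libraries are bulk RNA, fewer cells of a type and less RNA per cell cannot be told apart.

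Most myeloid genes lay above WT in the Tumor libraries, and 8 rose: Fcgr3, Tyrobp, Ms4a6c, Lgmn, Cybb, Clec7a, Fcer1g and Fcgr4. They are 8 of the 33 members that passed the filter on low counts (edgeR quasi-likelihood F test, p adjusted over 21414 genes and below 0.05), where 1.37% of all tested genes were called higher. Fcgr1 did not pass the filter. With no filter on low counts all 34 could be tested, and 11 were called higher against 0.934% of all genes. No member was called lower (0 by edgeR and 0 by DESeq2), against 0.219% of genes called lower by edgeR and 4.81% by DESeq2. At an unadjusted edgeR p below 0.05, 0 members were lower and 19 higher, where 3439 of the 21414 genes passed in either direction. For 11 members the lowest Tumor library exceeded the highest WT library, which held for 4.38% of tested genes. On the pan-T scale, in which libraries are scaled to T cell genes, this held for 0 members and for 0.126% of genes. The median log2 fold change over the 33 was 1.97, against -0.20 over all tested genes. Because earlier results of these data were known when the members were chosen, these shares only describe the set.

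T cell genes were higher in the same fit. The 14 pan-T genes had a median log2 fold change of 2.86 in the same fit, and 7 of them were called higher. When each library was scaled to its pan-T genes, the median of all genes moved to -3.70 and that of the 33 members to -1.39, which is 2.31 above all genes, against 2.17 above them on the usual scaling (trimmed mean of M values, TMM). None of the 8 called members passed under pan-T scaling, where S100a8 alone was called higher (2.49 ± 1.02, adjusted p = 0.0246, edgeR) against 0.0794% of all genes, and 8 members were called lower, against 91.4% of all genes. Pan-T scaling turned the sign of 22 members from positive to negative, among them Lgmn, Cybb and Clec7a of the 8.

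Single libraries and settings moved the count of 8. It was 3, 2, 2, 2 and 3 without Tumor replicates 1 to 5 in turn, where 0.515%, 0.317%, 0.266%, 0.451% and 0.849% of all genes were called higher. It was 1 without WT replicate 1, against 0.275% of all genes, and 8, 9, 8 and 6 without WT replicates 2 to 5, against 1.49%, 1.08%, 1.52% and 1.2%. Fcgr3 alone was called in all 10 of these fits. Tyrobp lost its call without Tumor replicate 2, Tumor replicate 3 or WT replicate 1, and Ms4a6c without Tumor replicate 2, Tumor replicate 4 or WT replicate 1. Lgmn and Fcer1g were called only in 4 fits, those without WT replicates 2 to 5, Cybb in the 4 without Tumor replicate 2 or WT replicates 2, 3 or 4, Fcgr4 in the 2 without WT replicate 2 or 5, and Clec7a in the 2 without WT replicate 2 or 3. DESeq2 called 12 members higher (1.95% of all genes), relative log expression factors 6 (0.985%), and the fit with the replicate number as a block 5 (0.644%). Without WT replicates 1 and 2 there were 12 (6.4%), and without WT replicates 3, 4 and 5 there were 9 higher (2.32%) and 1, Cd63, lower (2.09%).

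**Figure D1:**
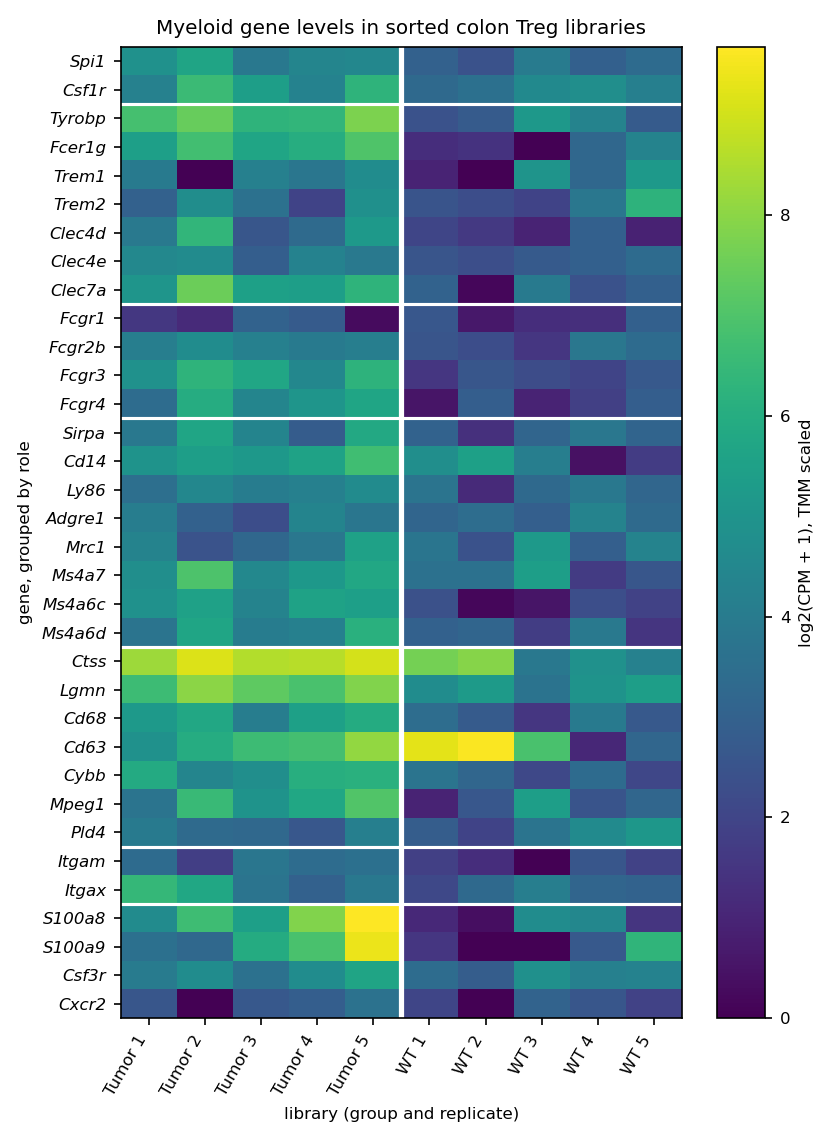
Levels of the 34 genes as log2(CPM + 1), TMM scaled, in 5 Tumor libraries (left) and 5 WT libraries (right), with white lines between groups of roles. Ctss is bright in all Tumor libraries and in WT replicates 1 and 2, Cd63 is brightest in WT replicates 1 and 2, and S100a8 and S100a9 are brightest in Tumor replicate 5.

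The factors that set up the lineage were positive without passing. Spi1, which encodes PU.1, stood at 28.9, 49.7, 13.8, 20.1 and 21.1 CPM in Tumor replicates 1 to 5, against 7.02, 4.42, 15.5, 6.91 and 9.53 CPM in WT replicates 1 to 5. Only Tumor replicate 3 fell below the highest WT library, and the log2 fold change was 1.63 ± 0.64 (SE, edgeR adjusted p = 0.218). Csf1r, the growth factor receptor that macrophages need to survive, stood at 18.3, 94.9, 42.4, 18.8 and 76.6 CPM in Tumor, against 8.89, 10.8, 23.0, 26.2 and 17.2 CPM in WT. Tumor replicates 1 and 4 lay inside the WT range, and the difference of 1.55 ± 0.59 log2 units did not pass (adjusted p = 0.210). Csf1r overlaps Hmgxb3 on the opposite strand, and without a stated strand setting its reads cannot be separated from those of that neighbour. Both genes had negative values after pan-T scaling (-1.82 ± 1.003 and -1.64 ± 0.89).

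Adaptors of activating receptors showed some of the clearest separation. Tyrobp encodes DAP12, the ITAM adaptor of Trem1, Trem2 and natural killer receptors. Its level was 112, 172, 78.4, 81.5 and 216 CPM in Tumor, against 4.45, 5.94, 34.7, 19.3 and 5.90 CPM in WT. The lowest Tumor library was above the highest WT library, WT replicate 3, and Tyrobp rose by 3.24 ± 0.66 log2 units (edgeR adjusted p = 0.0187), or 3.92 ± 0.66 without that WT library. Fcer1g encodes the Fc receptor gamma chain, the ITAM adaptor of activating Fc receptors and of several lectin receptors. It stood at 43.0, 106, 49.99, 63.7 and 128 CPM in Tumor, against 1.40, 1.66, 0, 8.37 and 19.1 CPM in WT, where replicate 3 had 0 reads. The groups did not overlap, and the rise was 3.71 ± 0.85 (adjusted p = 0.0336), or 4.78 ± 0.85 without WT replicate 5. On the pan-T scale the values of both adaptors were near 0, at 0.47 ± 0.83 for Tyrobp and 0.15 ± 1.07 for Fcer1g.

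Among the lectin and Trem receptors Clec7a alone was called, beside 1.37% of all tested genes called higher. Clec7a encodes Dectin-1, a receptor for fungal beta-glucan with a tyrosine motif of its own, and stood at 32.0, 181, 44.8, 42.4 and 77.8 CPM in Tumor, against 7.25, 0.138, 15.02, 4.37 and 6.80 CPM in WT. Every Tumor library was above every WT library, and Clec7a rose by 3.51 ± 0.80 (edgeR adjusted p = 0.0313). Without Tumor replicate 2, the highest, its value was 2.92 ± 0.81 and did not pass (adjusted p = 0.129). Clec4d, a lectin receptor paired with the neighbouring Clec4e (Mincle), reached 81.2 CPM in Tumor replicate 2 and 5.03 to 36.3 CPM in the other Tumor libraries, against 0.907 to 6.91 CPM in WT. The 2 groups overlapped, and the difference of 3.36 ± 0.89 did not pass (adjusted p = 0.0623), though it did by DESeq2 (3.29 ± 0.87, adjusted p = 0.00744) and without WT replicate 4 (4.06 ± 0.97, adjusted p = 0.0393). Without Tumor replicate 2 the Clec4d value was 2.52 ± 0.94 (adjusted p = 0.271). Clec4e had 6.33 to 24.4 CPM in Tumor and 4.01 to 9.53 CPM in WT (1.46 ± 0.71, edgeR adjusted p = 0.323). The DAP12 partners Trem2, a lipid receptor of macrophages, and Trem1, an amplifier of inflammation in neutrophils and monocytes, had values near 0 on TMM (-0.41 ± 0.89 and -0.13 ± 1.14, adjusted p = 0.850 and 0.967). Their signs rest on single libraries: without WT replicate 5, which held 75.7 CPM of Trem2 and 36.7 CPM of Trem1, the values were 1.28 ± 0.89 and 0.50 ± 1.26.

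Fc gamma receptors bind antibody of the IgG class. Fcgr3, an activating receptor of low affinity, had the smallest p of the members. It stood at 28.4, 77.1, 52.3, 21.3 and 75.02 CPM in Tumor, against 1.87, 4.97, 3.76, 2.91 and 5.44 CPM in WT. These are 101 to 327 reads per Tumor library and 8 to 36 reads per WT library. Fcgr3 rose by 3.74 ± 0.62 log2 units (edgeR adjusted p = 0.00612), and its values without 1 library were 3.53 to 3.97. Fcgr4, another activating receptor that pairs with the gamma chain, stood at 9.83, 63.0, 20.3, 31.8 and 50.7 CPM in Tumor, against 0.468, 6.49, 0.939, 2.55 and 6.35 CPM in WT. It rose by 3.36 ± 0.80 (adjusted p = 0.0395), with no overlap between groups. Fcgr2b, the inhibitory member of the family, had the steadiest Tumor levels, 14.4 to 24.9 CPM, against 1.88 to 13.1 CPM in WT, and did not pass (1.43 ± 0.72, adjusted p = 0.339). Fcgr1, the receptor of high affinity, was read 1 to 45 times in Tumor libraries and 3 to 22 times in WT libraries, averaging 3.32 ± 3.08 and 3.07 ± 2.74 CPM (SD, n = 5 each), and was not tested. Pan-T scaled values were 0.35 ± 1.03 for Fcgr3, 0.012 ± 1.11 for Fcgr4 and -2.02 ± 1.06 for Fcgr2b. The receptor genes Fcgr2b and Fcgr3 share much of their coding sequence, so reads could be split between them. By the deposited coordinates (mm10) Fcgr4 (chr1:171018920-171029761, plus strand), Fcgr3 (chr1:171051174-171064935, minus) and Fcer1g (chr1:171229572-171234365, minus) lie in 1 stretch of chromosome 1 with Fcgr2b (chr1:170958617-170976547, minus).

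Promoters are shown for 5 members to set the letters of the motifs PU.1 and C/EBP factors are known to bind beside these levels: Fcgr3, Fcgr4 and Clec7a, which rose and hold the PU.1-type letters, Cybb, which rose and does not, and S100a8, which holds them at 2 places. Each is the 250 bases before a RefSeq start (GRCm38.p6), 5′ to 3′ on the gene's strand, from chr1:171059404-171059653 (minus strand), chr1:171018676-171018925 (plus), chr6:129472780-129473029 (minus), chrX:9469325-9469574 (minus) and chr3:90668821-90669070 (plus). These starts are not always those of the counted genes. Deposited Fcgr3 and Cybb start at 171064935 and 9487771, so their printed stretches lie inside the counted genes. Deposited Fcgr4 and S100a8 start at 171018920 and 90668978, inside their printed stretches. Capitals mark GAGGAA or TTGCNNAA on either strand (a match on the opposite strand appears as its reverse complement).
Fcgr3: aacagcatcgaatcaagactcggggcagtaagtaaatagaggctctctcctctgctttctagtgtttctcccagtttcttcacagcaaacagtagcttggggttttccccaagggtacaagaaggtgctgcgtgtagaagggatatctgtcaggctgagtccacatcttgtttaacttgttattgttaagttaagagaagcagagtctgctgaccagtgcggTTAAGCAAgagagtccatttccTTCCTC
Fcgr4: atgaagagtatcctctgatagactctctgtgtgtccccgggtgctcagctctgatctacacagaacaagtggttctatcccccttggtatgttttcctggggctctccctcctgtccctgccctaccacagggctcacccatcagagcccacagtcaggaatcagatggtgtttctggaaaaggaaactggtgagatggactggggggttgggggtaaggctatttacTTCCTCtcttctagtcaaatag
Clec7a: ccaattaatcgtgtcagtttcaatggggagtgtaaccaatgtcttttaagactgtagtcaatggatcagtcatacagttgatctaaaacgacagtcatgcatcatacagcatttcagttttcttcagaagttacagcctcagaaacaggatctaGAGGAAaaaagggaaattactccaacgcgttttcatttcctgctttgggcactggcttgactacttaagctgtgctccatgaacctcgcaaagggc
Cybb: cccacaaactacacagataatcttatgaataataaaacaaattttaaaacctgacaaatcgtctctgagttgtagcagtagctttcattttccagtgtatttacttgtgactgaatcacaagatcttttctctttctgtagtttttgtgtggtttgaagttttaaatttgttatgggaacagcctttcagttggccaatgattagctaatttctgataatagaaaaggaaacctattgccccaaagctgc
S100a8: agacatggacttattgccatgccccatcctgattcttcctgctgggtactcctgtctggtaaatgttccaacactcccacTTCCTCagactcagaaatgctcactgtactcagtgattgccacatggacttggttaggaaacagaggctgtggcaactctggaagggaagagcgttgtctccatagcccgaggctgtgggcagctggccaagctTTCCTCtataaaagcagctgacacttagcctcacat
RefSeq promoters were matched by symbol for 27 of the 34 members. GAGGAA, searched on both strands, was present for 16 of the 27 (59.3%), against 25.9% of all 27025 genes with a promoter in the table. The longer GAGGAAGT, which contains GAGGAA, was present for 2 (7.41%, against 2.79% of all), Fcgr4 and S100a8. TTGCNNAA was present for 4 (14.8%, against 10.8%). Among the 7 called members with a promoter 3 held GAGGAA, and among the other 20 members 13 did. These matches describe letters and were tested for nothing.

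**Figure D2:**
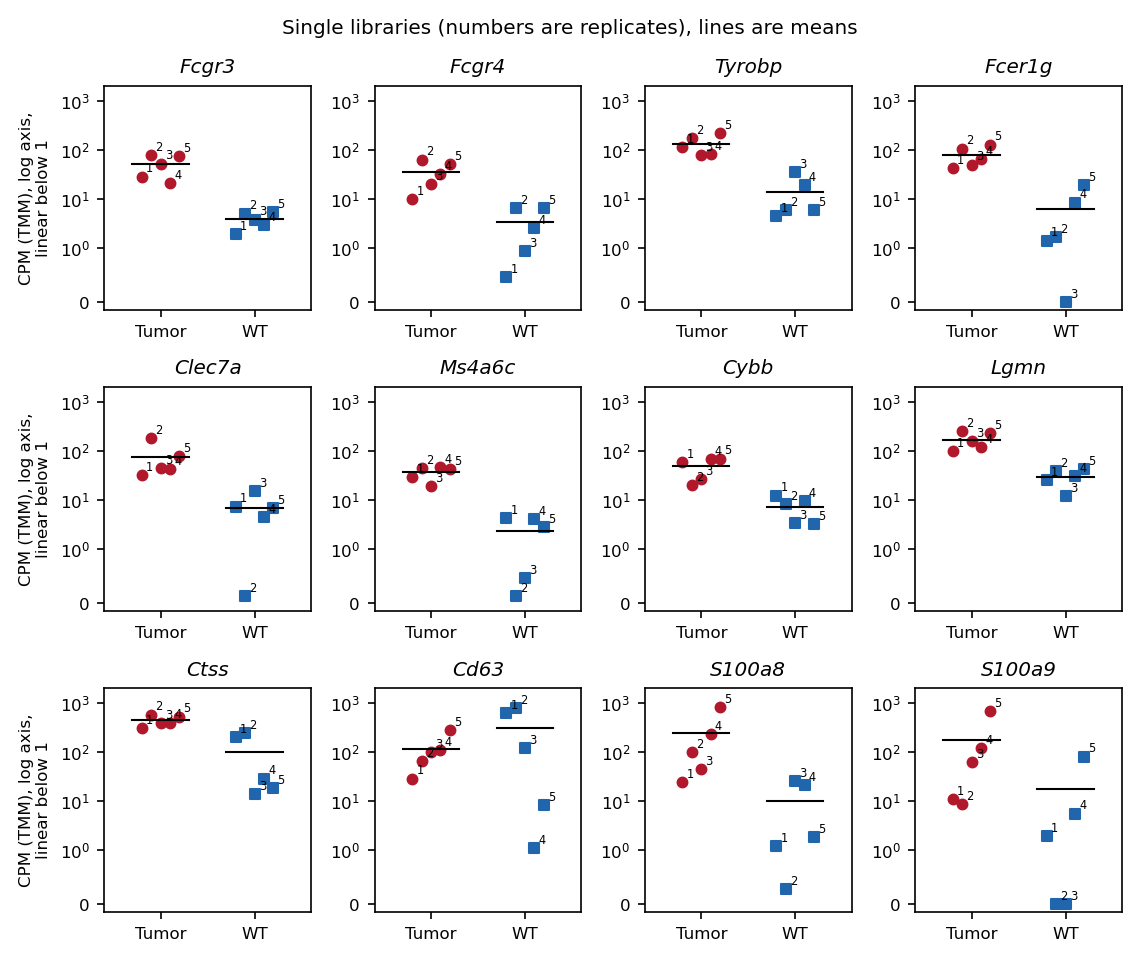
CPM (TMM scaled) of 12 genes in single libraries, on an axis that is logarithmic above 1 and linear below it. Numbers beside points are replicates, Tumor stands left of WT, and lines are means. In the first 9 panels (Fcgr3 to Ctss) all Tumor points lie above all WT points, whereas Cd63, S100a8 and S100a9 overlap. The 12 genes are a selection: such separation held for 11 of 33 tested members and 4.38% of tested genes. On the pan-T scale it held for 0 members.

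Other surface receptors of monocytes and macrophages gave 1 call among 8, beside 1.37% of all tested genes called higher. Ms4a6c, a tetraspan membrane protein gene of monocytes, stood at 28.7, 45.2, 19.0, 46.1 and 42.7 CPM in Tumor, against 4.21, 0.138, 0.469, 4.003 and 2.72 CPM in WT. The lowest Tumor library was above all WT libraries, and Ms4a6c rose by 3.97 ± 0.81 log2 units on TMM (edgeR adjusted p = 0.0196), against 0.26 ± 1.15 on the pan-T scale. The transcript BE692007 overlaps Ms4a6c on the opposite strand with 835 reads, near the 811 of Ms4a6c itself, so part of its reads is uncertain. The related Ms4a6d had 12.1 to 68.8 CPM in Tumor and 1.81 to 14.2 CPM in WT (2.29 ± 0.73, adjusted p = 0.134). Ms4a7, a macrophage member of that family, had 21.8 to 126 CPM in Tumor, and WT replicate 3, at 42.3 CPM, lay inside this range (1.87 ± 0.72, adjusted p = 0.213). Without WT replicate 3 it was called (2.81 ± 0.68, adjusted p = 0.0491), and without Tumor replicate 2 it was 1.27 ± 0.74 (adjusted p = 0.471).

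Cd14, the co-receptor for bacterial lipopolysaccharide, stood at 30.6, 41.9, 35.1, 46.7 and 103 CPM in Tumor, against 26.7, 43.7, 16.4, 0.364 and 2.27 CPM in WT. WT replicates 1 and 2, the libraries rich in epithelial RNA, were inside or near the Tumor range, and the difference did not pass (1.51 ± 0.79, edgeR adjusted p = 0.354). Without these 2 libraries it was 3.06 ± 0.87 (adjusted p = 0.0326). Sirpa, the inhibitory receptor that reads the signal CD47 on other cells, had 6.03 to 56.4 CPM in Tumor and 1.52 to 13.1 CPM in WT (1.97 ± 0.74, adjusted p = 0.206). Ly86, encoding the MD-1 partner of the receptor RP105, had 10.7 to 24.5 and 1.24 to 13.8 CPM (1.02 ± 0.72, adjusted p = 0.491) in Tumor and WT. For 2 markers of mature tissue macrophages the values were near 0. Adgre1, which encodes F4/80, averaged 12.04 ± 6.56 CPM in Tumor and 10.6 ± 5.03 CPM in WT (SD, n = 5 each), and Mrc1, the mannose receptor CD206, averaged 17.99 ± 16.0 and 15.9 ± 13.1 CPM. Neither passed (0.18 ± 0.73 and 0.18 ± 0.75, adjusted p = 0.921 and 0.923), and both signs flipped in some other fits, including TMM replaced by relative log expression factors (-0.0057 and -0.10). An interval of 2 SE around 0.18 still allows changes of over 1 log2 unit either way.

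Among the 7 genes of lysosome and phagosome 2 rose, Lgmn and Cybb, beside 1.37% of all tested genes called higher. Lgmn, the cysteine protease legumain, stood at 97.2, 252, 156, 118 and 226 CPM in Tumor, against 25.3, 38.1, 11.7, 30.2 and 41.7 CPM in WT. All Tumor libraries were above all WT libraries, and Lgmn rose by 2.52 ± 0.56 log2 units on TMM (edgeR adjusted p = 0.0274), against -1.05 ± 0.79 on the pan-T scale. Cybb, the catalytic NADPH oxidase subunit gp91phox, rose as well, from low levels. It stood at 59.0, 20.3, 26.6, 66.7 and 69.1 CPM in Tumor, against 12.2, 8.15, 3.29, 9.46 and 3.18 CPM in WT (2.72 ± 0.61, adjusted p = 0.0297, and -0.82 ± 0.99 on the pan-T scale). Cd68, a lysosomal membrane glycoprotein widely used to stain macrophages, had 16.2 to 60.6 CPM in Tumor and 1.88 to 14.6 CPM in WT. These ranges did not meet, and the difference came just short of the threshold (2.48 ± 0.63, edgeR adjusted p = 0.0529). It passed without WT replicate 4 (2.92 ± 0.68, adjusted p = 0.0346) and in DESeq2 (2.39 ± 0.63, adjusted p = 0.00752).

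Ctss and Cd63 were the members highest in the WT libraries with epithelial RNA. Ctss, the protease cathepsin S that trims the class II invariant chain, stood at 307, 572, 379, 394 and 523 CPM in Tumor, against 201, 244, 13.6, 28.4 and 18.1 CPM in WT. It was separated without passing (2.10 ± 0.81, edgeR adjusted p = 0.212), and reached 4.45 ± 0.69 (adjusted p = 0.00184) without WT replicates 1 and 2. Cd63, a tetraspanin of late endosomes and secretory granules in many cell types, stood at 28.4, 63.4, 99.2, 108 and 275 CPM in Tumor, against 625, 787, 117, 1.09 and 8.16 CPM in WT. Its difference was -1.42 ± 1.09 (adjusted p = 0.529), 1.48 ± 0.99 without WT replicates 1 and 2 and -2.65 ± 0.54 (adjusted p = 0.00478) without WT replicates 3, 4 and 5. Ctss and Cd63 made up 78.9% and 83.3% of all member reads in WT replicates 1 and 2, against 19.7% to 34.9% in Tumor and 5.30% to 24.3% in the other WT libraries. The part of epithelial RNA in these values was not tested. Mpeg1, the pore-forming perforin-2 of phagosomes, had 12.1 to 132 CPM in Tumor, and in WT 42.3 CPM in replicate 3 and 0.936 to 8.16 CPM elsewhere (2.42 ± 0.82, adjusted p = 0.158). Without WT replicate 3 it was called (3.81 ± 0.76, adjusted p = 0.0209). Pld4, an endosomal exonuclease of phagocytes and B cells, had 5.15 to 16.98 CPM in Tumor and 2.90 to 33.6 CPM in WT (-0.52 ± 0.75, adjusted p = 0.758).

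The integrin chains of myeloid cells did not pass. Itgax (CD11c) stood at 86.5, 53.9, 12.3, 7.10 and 13.5 CPM in Tumor, against 3.28, 8.98, 16.4, 8.01 and 7.26 CPM in WT. Tumor replicates 1 and 2 were high, the other Tumor libraries lay within the WT range, and the difference was 1.98 ± 0.74 (edgeR adjusted p = 0.201). It was 1.30 log2 units without Tumor replicate 1. Itgam (CD11b) was low throughout, at 2.49 to 12.8 CPM in Tumor and 0 to 5.10 CPM in WT (1.93 ± 0.95, adjusted p = 0.328).

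None of the 4 neutrophil genes was called by edgeR, beside 1.37% of all tested genes called higher, and all 4 had positive values. S100a8, a calcium-binding protein gene, stood at 24.4, 99.9, 43.5, 227 and 817 CPM in Tumor, against 1.17, 0.276, 24.9, 21.1 and 1.81 CPM in WT. Tumor replicate 5 was highest and Tumor replicate 1 just below WT replicate 3, and the log2 fold change of 4.64 ± 1.20, the largest of the tested members, did not pass in edgeR (adjusted p = 0.0595) but did in DESeq2 (4.32 ± 1.10, adjusted p = 0.00502). Its value was 3.40 ± 1.02 without Tumor replicate 5 (adjusted p = 0.114), where other members had larger values, and 5.37 without WT replicate 3. S100a9, its dimer partner, stood at 11.0, 8.70, 61.5, 119 and 675 CPM in Tumor, against 1.87, 0, 0, 5.46 and 79.8 CPM in WT. Its spread was wider (3.34 ± 1.59, edgeR adjusted p = 0.319), and its value was 1.63 without Tumor replicate 5 and 6.61 without WT replicate 5. The pair took 36.8% of member reads in Tumor replicate 5, 20.0% in Tumor replicate 4 and 2.92% to 7.67% in the other Tumor libraries, against 0.0224% to 16.4% in WT. Csf3r, the receptor for the neutrophil growth factor G-CSF, had 11.4 to 48.6 CPM in Tumor and 6.22 to 27.7 CPM in WT (0.66 ± 0.62, adjusted p = 0.611). Cxcr2, which guides neutrophils toward chemokines such as Cxcl1 and Cxcl2, had 0 to 11.5 CPM in Tumor and 0 to 7.51 CPM in WT (0.65 ± 1.11, adjusted p = 0.802).

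**Figure D3:**
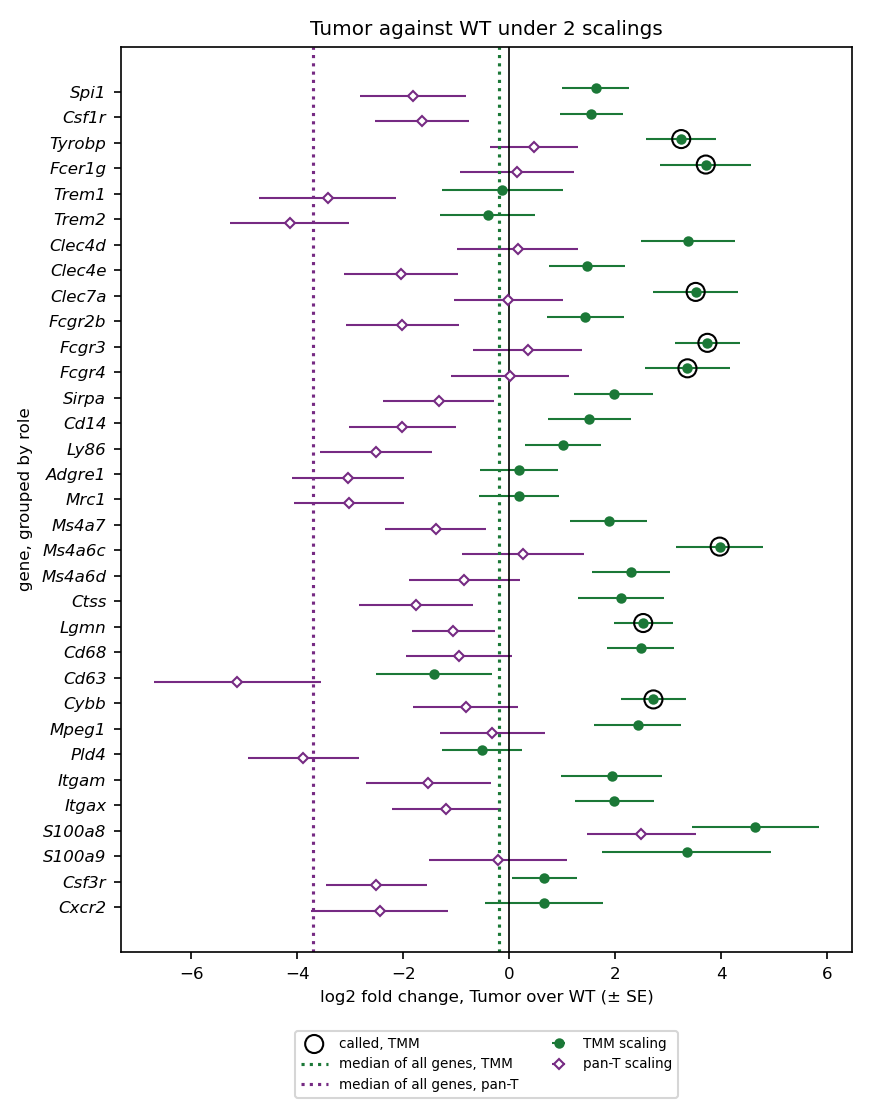
Log2 fold changes of Tumor over WT (± SE, 5 libraries each) for the 33 tested genes under TMM scaling (filled circles) and pan-T scaling (open diamonds), with dotted lines at the median of all tested genes, -0.20 and -3.70. Black rings mark the 8 genes called on TMM, and 22 genes that are positive on TMM turn negative on the pan-T scale, including 3 of the ringed genes (Lgmn, Cybb and Clec7a).

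Per length, the most abundant members in Tumor were S100a8 (349 ± 477 CPM per kilobase, SD, n = 5), S100a9 (336 ± 542), Ctss (320 ± 80.4) and Tyrobp (198 ± 90.3), and no other member averaged above 100 CPM per kilobase. The spreads of S100a8 and S100a9 exceed their means, so this order is not settled. A level to read them against came from 1979 genes for smell and pheromone receptors (olfactory and vomeronasal), taken by name. Whether the sorted cells express any of them was not tested. These receptor genes averaged 1.06 to 2.03 CPM per kilobase in Tumor and 1.22 to 4.20 in WT. Above this level of their own library lay 29 to 34 of the 34 members in Tumor, against 13 to 18 in WT. In every Tumor library 27 members were above it, and in every WT library 5 (Ctss, Lgmn, Spi1, Tyrobp and Csf3r). Fcgr1 alone was below it on average in Tumor, whereas 15 members, Fcgr3, Clec7a, Ms4a6c and Cybb among them, were below it on average in WT. Fold changes of these 15 therefore rest on WT values at this level.

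**Figure D4:**
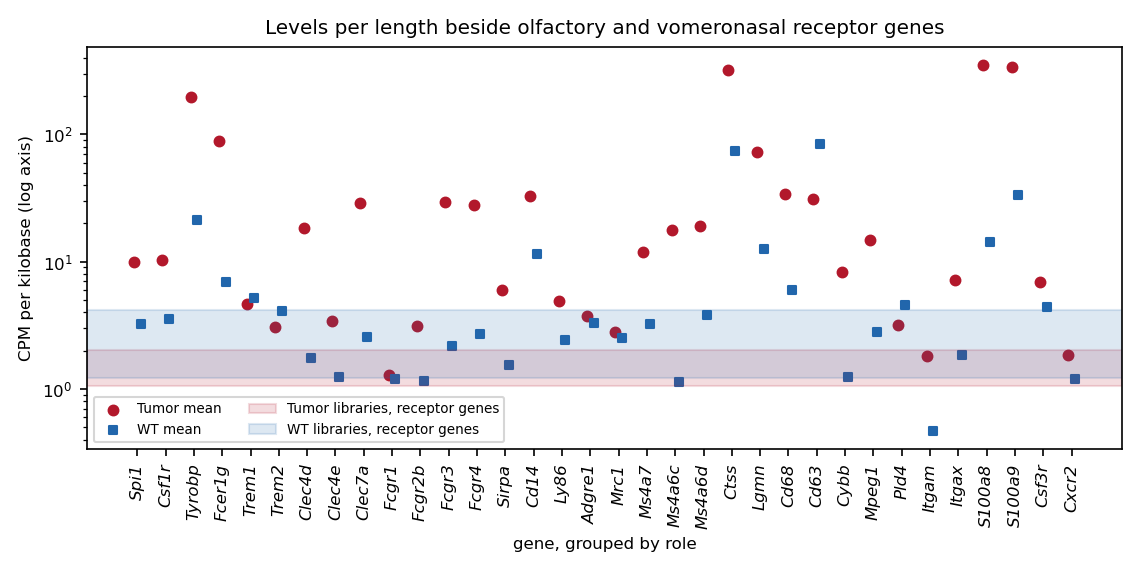
Mean level per length (CPM per kilobase, log axis) of the 34 genes in Tumor (red circles) and WT (blue squares), 5 libraries each, with bands for the range over libraries of the pooled olfactory and vomeronasal receptor genes, 1.06 to 2.03 in Tumor and 1.22 to 4.20 in WT. Of the members 15 have a WT mean below the WT mean of these receptor genes.

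The Tumor libraries differed in which members led. Tumor replicate 5 held the highest Tumor value of 18 of the 33 tested members, with S100a8, S100a9, Mpeg1, Tyrobp and Fcer1g among them. Tumor replicate 2 held that of 11, including Csf1r, Spi1, Clec7a, Clec4d, Fcgr3 and Fcgr4, and had 0 reads of Trem1 and Cxcr2. Tumor replicate 1 was the lowest Tumor library for 12 members and the highest for Itgax. Tumor replicate 5 also had the highest sums of epithelial and erythroid genes in that group (5678 and 1267 CPM) and the lowest pan-T mean. The part of these other transcripts in the members' values was not tested.

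Other genes of the same cells were read from separate lists that share no gene with the 34 and were also chosen with earlier results known. Over all tested genes 1.37% were called higher and 0.219% lower on TMM. Of 17 tested genes of resident macrophages 7 rose, led by C1qb (5.03 ± 0.78), C1qa (5.61 ± 0.89) and Aif1 (5.12 ± 0.86, edgeR adjusted p = 0.00566, 0.00573 and 0.00664), and 1, Siglec1, fell (-3.20 ± 0.80, adjusted p = 0.0473). C1qa and C1qb encode chains of complement C1q and stayed called on the pan-T scale (2.51 and 2.10), where Aif1 did not pass (2.21). The list summed to 2131 to 7148 CPM in Tumor and 290 to 694 CPM in WT. No gene of 14 on a monocyte list was called in either direction (median -0.29). Of 13 tested neutrophil-list genes 3 rose, Mmp9, Il1r2 and Il1b (4.503 ± 0.63, 4.32 ± 0.82 and 4.46 ± 0.95, edgeR adjusted p = 0.00341, 0.0142 and 0.0226), encoding gelatinase B, the decoy IL-1 receptor and IL-1 beta, and activated T cells also use Il1r2 and Mmp9. None of the 3 passed on the pan-T scale (1.04, 1.19 and 1.05). On that scale 4 macrophage-list genes were called higher, against 0.0794% of all genes. Called lower there were 6 genes of the macrophage list, 10 of the monocyte list and 7 of the neutrophil list, against 91.4% of all genes.

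Partners in signalling gave fewer calls, to be read beside the 1.37% of all tested genes called higher. Of 30 tested genes of ITAM and Fc receptor signalling 2 rose, Clec4n, which encodes the gamma chain partner Dectin-2 (5.61 ± 0.88, edgeR adjusted p = 0.00566), and Hcst, which encodes the adaptor DAP10 (3.28 ± 0.72, adjusted p = 0.0274). The list's median was 0.75, and on the pan-T scale neither passed (1.94 and 0.36). Of 15 tested myeloid transcription factors Id2, also abundant in T cells, rose (3.91 ± 0.79, adjusted p = 0.0181). Of 17 genes of the NADPH oxidase and lysosome 2 rose, Ncf4, encoding the oxidase subunit p40phox (3.28 ± 0.57, adjusted p = 0.00744), and Rac2, its blood-cell GTPase (3.70 ± 0.81, adjusted p = 0.0274). Among 9 tested colony stimulating factor and neutrophil chemokine genes Cxcl2 rose (4.38 ± 0.89, adjusted p = 0.0190) and stayed called on the pan-T scale (1.76).

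The gate for CD3, CD4, CD25 and GFP is meant to leave out macrophages and neutrophils, and how far it did was not tested. Defining markers of both cell types were read. Csf1r, Cd68, Adgre1, Cd14 and Spi1 had reads in all 10 libraries. S100a9 was at 0 in WT replicates 2 and 3, and Cxcr2 at 0 in Tumor replicate 2 and WT replicate 2. Some WT reads were few, with 1 of Cd14 in replicate 4 and 4 of Cd68 in replicate 3. Spi1 and Csf3r lay above the olfactory and vomeronasal receptor level in 5 WT libraries, Csf1r and Cd68 in 4, Adgre1, Cd14 and S100a9 in 3, S100a8 in 2 and Cxcr2 in 0. The 34 members together summed to 1088 to 4419 CPM in Tumor and 376 to 1064 CPM in WT. None of 11 B cell, 16 epithelial, 13 stromal and endothelial, 8 plasma cell and 9 mast cell genes tested was called, with medians of -0.94, -3.00, -0.59, -1.31 and -0.71. Over all tested genes 1.37% were called higher and 0.219% lower, so few calls would be found in lists of this size. Of 13 dendritic genes Itgae rose, which Tregs also express, and of 11 natural killer and innate-like genes Gzmb, Gzma and Nkg7 rose. The medians of these lists were 0.97 and 0.84. On the pan-T scale 0 genes of either list were called higher, and 7 and 6 were called lower, against 91.4% of all genes. Plasma cell genes summed to 280 to 3184 CPM in Tumor and 177 to 17448 CPM in WT, the highest in replicate 3. That library also held the highest WT value of 10 tested members, Ms4a7, Mpeg1 and Tyrobp among them. WT replicates 1, 2, 4 and 5 held that of 2, 4, 9 and 8 members. Whether myeloid reads came from other cells in the sort, from material carried by Tregs or from Tregs was not tested.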

How the data were processed

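The authors deposited unnormalized whole-number counts of reads for each gene. Per the submitters' processing notes the build was mm10 and the tools HISAT2 2.0.5 and featureCounts 1.5.0-p3. Annotation release, strand setting and the handling of multi-mapping reads: not given in the sources used here. The single-sample files held the same counts as the series table. The members and all gene lists were chosen with earlier results of these data known. Any member could be named, and from each other list at most 3 of its called genes, taken by p. A few more (Siglec1, Ly6g) were singled out after their values were seen.

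Counts were fitted in R 4.3.3 with edgeR 4.0.16 (filterByExpr with minimum count 10, TMM, robust quasi-likelihood F test, 2-sided, group as the only term), adjusted by Benjamini-Hochberg over 21414 genes and called below 0.05. SE is the log2 fold change divided by the square root of F. CPM are TMM scaled, except list sums and pan-T means, which use total counts. Pan-T scaling divides each library by the geometric mean of 14 T cell genes (count plus 0.5). The procedure was tested on simulated data. Alternatives were DESeq2 1.42.0, relative log expression factors, no filter, a replicate block, each library left out, and 2 sets of WT libraries left out. All 45 pairs of libraries differed by more than counting noise (chi-square per degree of freedom at least 25.7). Without molecular identifiers, PCR copies are part of the counts. Promoters came from the RefSeq table (GRCm38.p6).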

Additional observations from a re-analysis of the deposited data

Results flagged for a closer look

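In 9 of 68 sets of 5 libraries (34 genes in both groups), 1 library stood far from the other 4 by Dixon's criterion. Chance meets it in about 1 in 20 sets of independent, normally distributed values. These CPM were not put on a log scale, and the same libraries recur in all sets, so 9 of 68 cannot be set against that share. Tumor replicate 5 was far above the other Tumor libraries for Cd14 (103 CPM, next 46.7), S100a8 (817, next 227) and S100a9 (675, next 119), and Tumor replicate 2 for Fcgr2b (24.9, next 17.4). Among WT libraries, replicate 3 stood out for Ms4a7 (42.3 CPM, next 11.2) and Mpeg1 (42.3, next 8.16), replicate 4 for Adgre1 (19.3, next 10.1), and replicate 5 for Trem2 (75.7, next 13.5) and S100a9 (79.8, next 5.46). All 9 are high values.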

How the results depend on the processing

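The 340 calls among all genes became 65 to 417 without 1 library, 141 with the replicate block, 820 without a filter, 1325 without WT replicates 3, 4 and 5, 1993 without WT replicates 1 and 2, 2239 in DESeq2 and 19581 on the pan-T scale, while relative log expression factors gave 270. The 8 members called higher became 1 to 9 without 1 library, 5 with the replicate block and 1 on the pan-T scale, and were 6, 12 and 11 with relative log expression factors, DESeq2 and no filter. Members called lower were 0 throughout the fits without 1 library, 8 on the pan-T scale and 1 (Cd63) without WT replicates 3, 4 and 5. The cause of these shifts was not tested. The share of higher calls among all genes was 86.2% on TMM, 28.9% in DESeq2, 58.4% without a filter, 52.5% without WT replicates 3, 4 and 5, 97.9% with the block and 0.0868% on the pan-T scale. Same-numbered Tumor and WT libraries did not deviate together (correlations of -0.14 to 0.040 over genes, and 0 of 5 Tumor libraries closest to their own number). With 5 libraries per group a pairing could go unseen in such correlations, and the labels do not give one, so whether the numbers pair samples stays unknown. Under the block Lgmn, Cybb, Tyrobp and Clec7a were not called and S100a9 was (4.57 ± 0.96, edgeR adjusted p = 0.0431).

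On the pan-T scale these 22 members turned negative, in log2 units: Ctss -1.76, Cd68 -0.95, Csf1r -1.64, Cd14 -2.01, Ms4a7 -1.39, Adgre1 -3.04, Mrc1 -3.02, Lgmn -1.05, Cybb -0.82, Mpeg1 -0.32, Sirpa -1.34, Spi1 -1.82, Ms4a6d -0.85, Fcgr2b -2.02, Clec4e -2.04, Clec7a -0.022, Itgam -1.53, Itgax -1.19, Ly86 -2.52, S100a9 -0.22, Csf3r -2.51 and Cxcr2 -2.44. The other sign changes were in members that were not called on TMM. Mrc1 turned to -0.10 with relative log expression factors, -0.048 in DESeq2, -0.44 without Tumor replicate 5, -0.039 and -0.018 without WT replicates 2 and 4, and -0.17 without WT replicates 1 and 2. Adgre1 turned to -0.0057 with relative log expression factors and -0.041 without Tumor replicate 4. Trem1 turned to 0.14 without a filter, 0.53 with the block, 0.19 without Tumor replicate 2, 0.36 and 0.50 without WT replicates 3 and 5, and 5.02 without WT replicates 3, 4 and 5. Trem2 turned to 0.33 with the block, 1.28 without WT replicate 5 and 1.81 without WT replicates 3, 4 and 5. Cd63 turned to 0.11 with the block and 1.48 without WT replicates 1 and 2, and Pld4 to 1.29 without WT replicates 3, 4 and 5. Leaving out 1 library gave ranges of -0.44 to 0.80 for Mrc1, -0.041 to 0.55 for Adgre1, -0.69 to 1.28 for Trem2 and -0.47 to 0.50 for Trem1. Depth limits the low members most: 3 reads are 0.487 to 1.24 CPM in Tumor libraries and 0.415 to 1.41 CPM in WT libraries.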

Other observations

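Ly6g, the surface marker most used for mouse neutrophils, was highest in 2 WT libraries with few reads of the S100 pair. It stood at 2.53, 0.414, 3.57, 5.15 and 45.7 CPM in Tumor replicates 1 to 5, against 98.0, 64.8, 0.939, 1.46 and 2.72 CPM in WT replicates 1 to 5 (log2 fold change -1.55 ± 1.24, edgeR adjusted p = 0.551). Within Tumor its libraries had the same order as for S100a9, with replicate 5 highest, whereas the order for S100a8 differed. The sum of epithelial genes also had the Ly6g order, at 170, 45.5, 1285, 2341 and 5678 CPM in Tumor replicates 1 to 5. Which of these Ly6g follows was not tested. The highest Ly6g values of all libraries were in WT replicates 1 and 2, which held 1.17 and 0.276 CPM of S100a8 and 28564 and 37519 CPM of epithelial genes. Siglec1, a sialic acid receptor of resident macrophages, was the gene of the macrophage list that fell. It stood at 7.87, 3.32, 10.4, 14.6 and 1.61 CPM in Tumor, against 11.5, 10.6, 116, 45.1 and 169.6 CPM in WT, with the high WT values in the libraries with the most Gm10800 reads. Both genes were singled out after their values were seen.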
